A study of Mus musculus with 4 samples.

Results

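The genes described here form the glycolysis and hypoxia response module: 34 genes of the 24421 genes in the deposited matrices. They comprise 17 enzymes of glycolysis and lactate formation, 4 glucose and lactate carriers, 4 enzymes of the PFKFB family, 4 genes of the oxygen-sensing machinery and 5 genes that hypoxia induces in many tissues. They were taken by symbol and not by a cut on a measured value, and 34 of 34 passed the filter on low values (0.5 CPM or more in 2 or more libraries), as did 14106 genes in all. CPM is the number of reads of a gene relative to the size of its library, which the authors had rescaled in each library. TPM (transcripts relative to all transcripts of the library) corrects in addition for transcript length, and levels of different genes are compared only in TPM.

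RNA-seq had been performed on poly(A) RNA of the epididymal fat pad, a visceral depot, of obese wild-type (WT) male C57BL/6J mice. Both groups had received high-fat diet (HFD) for 14 weeks in all and were 24 weeks old at the end. Control mice (Ctrl, 2 libraries) ate HFD without interruption from 10 weeks of age. Weight-cycled mice (WC1, 2 libraries) started HFD when 8 weeks old and ate it for 8 weeks, were switched to standard diet (SD) for 2 weeks, and returned to HFD for 6 weeks. The comparison asks how fat tissue that had passed through a short period of weight loss differs from fat tissue of uninterrupted obesity. The whole depot was sequenced, so fewer cells of a type and less RNA per cell cannot be told apart in these data, and the age at first HFD differed between the groups along with the diet history.

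Glycolysis converts glucose to pyruvate through a fixed order of enzymes, most of which exist as isozymes made by separate genes in different cell types. Oxygen controls many of these genes through the hypoxia-inducible factors (HIFs): with oxygen present, prolyl hydroxylases mark the HIF alpha subunits for destruction, and when oxygen is short the subunits persist and raise transcription of glycolytic enzymes, glucose carriers and survival genes. In obese fat, enlarged adipocytes and infiltrating macrophages both use these pathways, and macrophages in particular depend on glycolysis when they are activated.

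Read totals were between 61465029 and 90965297 per library. The labelled tissue carried its defining markers: 10 adipocyte markers summed to between 20999 and 22897 TPM in Ctrl and between 38950 and 50582 TPM in WC1, led by Fabp4, and 7 of the 10 were called higher (10.2% of all genes tested were called higher and 7.71% lower). Of 10 macrophage markers, led by Lyz2, 4 were called lower and 9 were lower in both WC1 libraries than in both Ctrl libraries (36.6% of all genes tested were), and their sum was between 14497 and 16010 TPM in Ctrl and between 6768 and 9503 TPM in WC1. Of 8 endothelial markers, 6 were called higher, with sums between 258 and 298 TPM in Ctrl and between 641 and 843 TPM in WC1. The 8 fibroblast markers had 4 called lower, with sums between 4644 and 4673 TPM in Ctrl and between 3479 and 4182 TPM in WC1. The 6 epididymis markers summed to at most 0.62 TPM, and 4 of them were at 0 in every library. The adipocyte, macrophage, endothelial and fibroblast sums differed between the same groups that are compared below. Their part in the differences of the members was not tested.

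The module split. Of the 34 genes, 6 were higher in WC1, 6 were lower and 22 were not called by limma on log2(CPM + 1) with Benjamini-Hochberg adjustment over all genes tested (threshold 0.05, two-sided). The 12 called genes were 35.3% of the members, beside 17.9% of all genes tested (10.2% higher and 7.71% lower). The median log2 fold change was 0.02 over the members and -0.02 over all genes tested. The members that rose were the phosphofructokinase activators Pfkfb3 and Pfkfb1, the mitochondrial stress gene Bnip3, the HIF alpha subunit Epas1 and the enzymes Pfkl and Hk2. The members that fell were the glucose carrier Slc2a1, the lactate exporter Slc16a3, the enzymes Pkm, Pgk1 and Gpi1, and the collagen hydroxylase P4ha1.

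**Figure D1:**
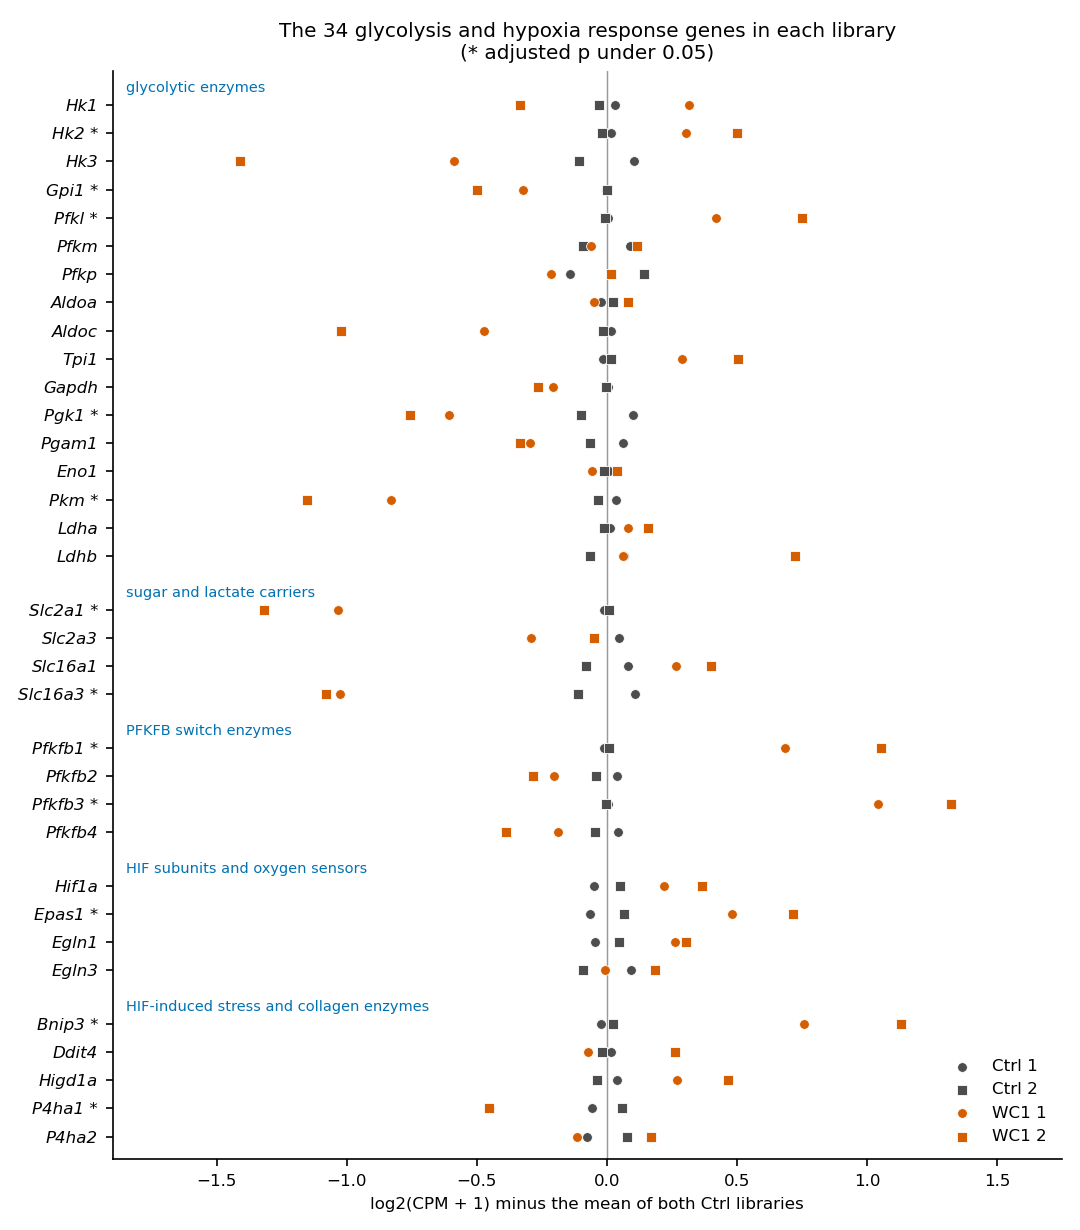
Log2(CPM + 1) of each of the 34 genes in each library, minus the mean of both Ctrl libraries, grouped by role. Grey points are Ctrl and orange points WC1 (circles library 1, squares library 2), and an asterisk marks the 12 genes with an adjusted p under 0.05. In each of the 12 both WC1 points lie on the same side of both Ctrl points, and WC1 2 lies farther out than WC1 1.

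The groups did not overlap in 25 of the 34 genes, 12 with both WC1 libraries above and 13 with both below, while 69.3% of all genes tested did not overlap (32.7% above and 36.6% below). In 12 of the 12 called genes WC1 2 lay farther from the Ctrl mean than WC1 1, as it did in 74.9% of all genes whose groups did not overlap. With Ctrl 1 or Ctrl 2 left out, 0 members were called by limma, beside 0.0425% and 0.0851% of all genes. In these fits 13 and 14 members had an unadjusted p under 0.05, as did 18.6% and 22.1% of all genes. Without WC1 1 the calls were 12 higher and 11 lower (36.7% of all genes called), and without WC1 2 they were 7 and 7 (18.8% of all genes). The sign of the 12 called genes was the same in each of these fits, which was fixed beforehand because their groups did not overlap. In the TPM matrix the same test gave 11 members higher and 4 lower, beside 18.7% of all genes called (14.6% higher and 4.13% lower). Over all genes tested, the median log2 fold change lay 0.12 higher in TPM than in CPM (0.10 against -0.02), and the fold changes of Hk1, Pfkp and Eno1, none of them called, changed sign.

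Glucose entry was the first point at which the genes separated. Slc2a1 encodes GLUT1, the carrier that brings glucose into most cells without insulin. It measured 61.1 and 62.0 CPM in Ctrl 1 and Ctrl 2, and 29.6 and 24.1 CPM in WC1 1 and WC1 2. Both WC1 libraries lay more than 2-fold below either Ctrl library, and the mean was 2.29-fold lower (log2 fold change -1.18 ± 0.11 SE, adjusted p = 0.013). Slc2a3, which encodes GLUT3, a high-affinity carrier of neurons and leukocytes, was far rarer (between 2.1 and 2.6 TPM against 20.1 to 46.6 TPM for Slc2a1) and was not called (log2 fold change -0.17, adjusted p = 0.39). Slc2a1 supplied 94.8% and 95.2% of the summed TPM of both carriers in Ctrl and 92.1% and 88.6% in WC1.

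Hexokinase traps glucose in the cell as glucose 6-phosphate. Of its 3 isozymes 1 was called, Hk2, which rose, beside 17.9% of all genes tested called and 10.2% higher. Hk2, the isozyme of insulin-responsive tissues, measured 39.2 and 38.2 CPM in Ctrl and 48.0 and 55.2 CPM in WC1 (log2 fold change 0.40 ± 0.09, adjusted p = 0.044). Hk3, an isozyme of myeloid cells, was the most abundant hexokinase transcript here. Its levels were 268 and 231 CPM in Ctrl and 166 and 93.1 CPM in WC1. The WC1 libraries were both lower but lay far apart, and the log2 fold change of -0.998 ± 0.277 had an adjusted p of 0.067. It was called lower by DESeq2 (adjusted p = 0.0014). The log2 fold change of Hk3 was -1.41 without WC1 1 and -0.59 without WC1 2. Such a fit takes its spread from the Ctrl libraries alone, so its calls are not used here. Hk1, the isozyme of most tissues, measured 70.8 and 67.8 CPM in Ctrl, 86.4 CPM in WC1 1 and 54.8 CPM in WC1 2, so that the WC1 libraries lay on either side of Ctrl (log2 fold change -0.01 ± 0.21, adjusted p = 0.98). The log2 fold change of Hk1 turned sign between these fits, at -0.33 without WC1 1 and 0.31 without WC1 2. As a share of hexokinase TPM, Hk3 made up 77.6% and 75.6% in Ctrl and 63.6% and 55.5% in WC1, while Hk2 made up 6.61% and 7.28% in Ctrl and 10.7% and 19.2% in WC1.

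Gpi1, which converts glucose 6-phosphate to fructose 6-phosphate, measured 497 and 499 CPM in Ctrl and 398 and 352 CPM in WC1. The fall was modest and larger than the difference within either group (log2 fold change -0.41 ± 0.10, adjusted p = 0.048), and it was not called in TPM (adjusted p = 0.075).

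Phosphofructokinase is the main control point of the pathway. Pfkl, the liver-type subunit, measured 69.60 and 69.04 CPM in Ctrl and 93.1 and 117 CPM in WC1, 1.52-fold higher (log2 fold change 0.58 ± 0.12, adjusted p = 0.037). Pfkp, the platelet-type subunit, had the highest TPM of the 3 and overlapped between groups (119 and 146 CPM in Ctrl, 114 and 133 CPM in WC1, log2 fold change -0.10, adjusted p = 0.61). Its exons share 748 bases with those of Pitrm1 on the opposite strand, and the sources used here do not say whether reads were counted by strand. Pfkm, the muscle-type subunit, overlapped as well at between 15.2 and 17.6 CPM. In WC1, Pfkl supplied 42.7% and 44.6% of the phosphofructokinase TPM, against 34.4% and 31.0% in Ctrl.

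The PFKFB enzymes make and break fructose 2,6-bisphosphate, the strongest activator of phosphofructokinase, and they held the largest rise of the module. Pfkfb3, the isozyme with the highest kinase activity and one that hypoxia and adipocyte differentiation induce, measured 288 and 287 CPM in Ctrl and 594 and 721 CPM in WC1. Both WC1 libraries were more than 2-fold above either Ctrl library, and the Ctrl libraries were nearly equal (log2 fold change 1.18 ± 0.12, adjusted p = 0.013). Pfkfb1, the isozyme of liver and muscle, rose from 13.03 and 13.23 CPM to 21.7 and 28.3 CPM (log2 fold change 0.87 ± 0.14, adjusted p = 0.025). Pfkfb4 and Pfkfb2 lay lower in both WC1 libraries and were not called. Pfkfb4 measured 86.4 and 81.2 CPM against 73.4 and 63.8 CPM (log2 fold change -0.29, adjusted p = 0.091), and Pfkfb2 had a log2 fold change of -0.24 (adjusted p = 0.10). Within the family, Pfkfb3 made up 60.6% and 61.5% of the TPM in Ctrl and 75.8% and 78.9% in WC1, and Pfkfb4 went from 27.2% and 26.1% to 14.1% and 10.5%.

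**Figure D2:**
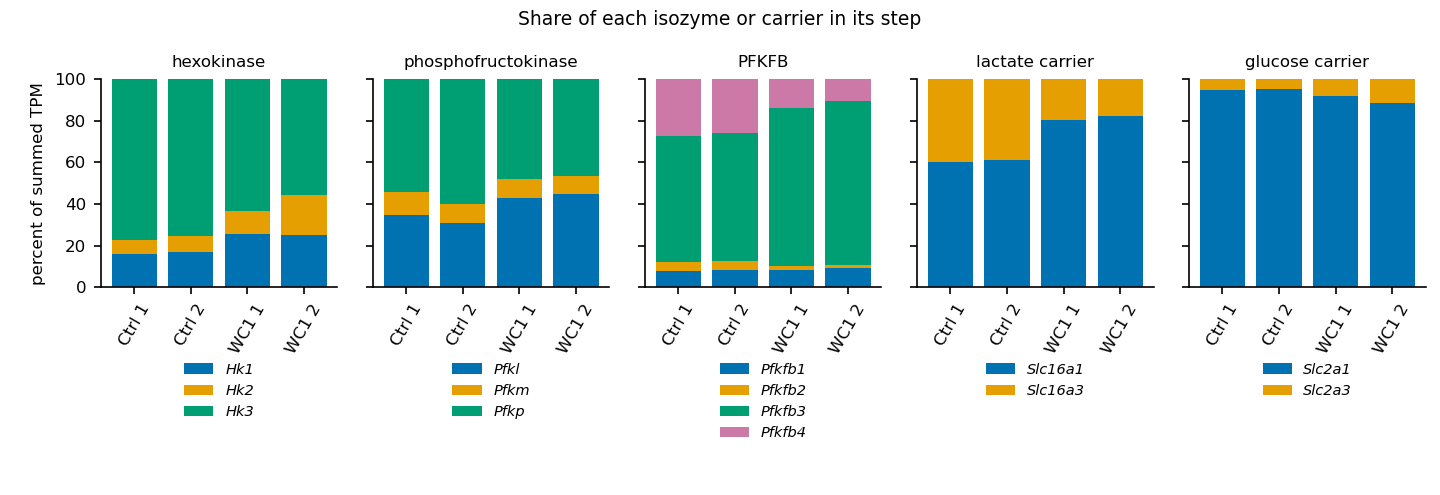
Each bar is 1 library and shows the percent of the summed TPM of a step that each isozyme or carrier supplied. The Hk3 segment is shorter in both WC1 bars (63.6% and 55.5% against 77.6% and 75.6%), as is Slc16a3 among the lactate carriers (19.7% and 17.7% against 39.8% and 38.6%), while Pfkfb3 is taller.

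Aldoa and Gapdh, the members with the highest levels in TPM, lie in the middle of the pathway. Of the enzymes there, Aldoa, Tpi1, Gapdh, Pgam1 and Eno1 were not called by limma, while DESeq2 called Tpi1, Gapdh and Pgam1 (adjusted p = 0.0051, 0.045 and 0.017). Aldoa, which splits fructose 1,6-bisphosphate, had the highest level of the module (2136 TPM over the 4 libraries) and overlapped between groups at 1568 and 1621 CPM in Ctrl and 1542 and 1687 CPM in WC1 (log2 fold change 0.02 ± 0.13). Its isozyme Aldoc supplied at most 0.183% of the aldolase TPM and lay lower in both WC1 libraries (5.09 and 4.96 CPM against 3.34 and 1.97 CPM, log2 fold change -0.75, adjusted p = 0.065). Tpi1, which interconverts the triose phosphates, measured 506 and 517 CPM in Ctrl and 625 and 727 CPM in WC1. It was higher in both WC1 libraries (log2 fold change 0.40 ± 0.11), with an adjusted p of 0.067 in CPM and 0.043 in TPM. Gapdh, the dehydrogenase often used as a reference gene, measured 994 and 988 CPM in Ctrl and 859 and 825 CPM in WC1 (log2 fold change -0.23 ± 0.10, adjusted p = 0.17).

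Pgk1 and Pgam1 carry out the next reactions, and the former is the first step that yields ATP. Pgk1 measured 318 and 277 CPM in Ctrl and 194 and 175 CPM in WC1, 1.61-fold lower with no overlap (log2 fold change -0.68 ± 0.10, adjusted p = 0.023). Pgam1, the phosphoglycerate mutase, measured 268 and 246 CPM against 209 and 203 CPM and was not called (log2 fold change -0.31 ± 0.08, adjusted p = 0.056). Eno1, the enolase, overlapped between groups in CPM (673 and 664 CPM in Ctrl, 642 and 687 CPM in WC1, log2 fold change -0.01 ± 0.10, adjusted p = 0.96). Summing its reads with those of the near-identical gene Eno1b left the log2 fold change at -0.01.

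Pkm, which encodes the M-type pyruvate kinase of the last step, fell from a high level. Its levels were 1466 and 1396 CPM in Ctrl and 804 and 642 CPM in WC1, 1.98-fold lower (log2 fold change -0.99 ± 0.15, adjusted p = 0.022). In TPM it was the third most abundant of the 34 genes in both Ctrl libraries (1152 and 1108 TPM) and fell below Eno1 and Tpi1 in both WC1 libraries (689 and 568 TPM). The values are per gene, so the M1 and M2 splice forms were not separated.

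Pyruvate can leave glycolysis as lactate. Ldha, the subunit that favours lactate formation, measured 706 and 694 CPM in Ctrl and 740 and 781 CPM in WC1 (log2 fold change 0.12 ± 0.10, adjusted p = 0.41). Ldhb, the subunit of oxidative tissues, overlapped between groups, with WC1 2 at 31.2 CPM and the other libraries between 17.7 and 19.4 CPM. The lactate exporter Slc16a3, which encodes MCT4 and is typical of strongly glycolytic cells, fell from 17.66 and 15.03 CPM to 7.51 and 7.18 CPM (log2 fold change -1.05 ± 0.11, adjusted p = 0.014). Slc16a1, which encodes MCT1, the more widely expressed carrier that takes lactate in or out, lay on the opposite side at 47.7 and 42.5 CPM in Ctrl and 54.4 and 59.8 CPM in WC1, and was called in TPM (adjusted p = 0.043) but not in CPM (log2 fold change 0.33 ± 0.09, adjusted p = 0.065). Together the carriers kept nearly the same summed level (34.2 and 30.2 TPM in Ctrl, 31.9 and 35.3 TPM in WC1), with Slc16a1 going from 60.2% and 61.4% of it to 80.3% and 82.3%.

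Summed over isozymes, the pathway did not move as a block. Of its 11 enzymatic steps, 5 had a higher summed TPM in both WC1 libraries and 6 a lower one, while the groups did not overlap in TPM in 70.7% of all genes tested. The ratio of the WC1 mean to the Ctrl mean was highest for triose phosphate isomerase (1.46) and phosphofructokinase (1.25) and lowest for pyruvate kinase (0.56), phosphoglycerate kinase (0.68) and hexokinase (0.72). The 17 enzymes together took 0.790% and 0.789% of all TPM in Ctrl and 0.765% and 0.807% in WC1, so their total overlapped between the groups. An exact permutation test of such sums or shares cannot go below p = 0.333 with 2 libraries against 2, because there are only 3 ways to split them into pairs.

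**Figure D3:**
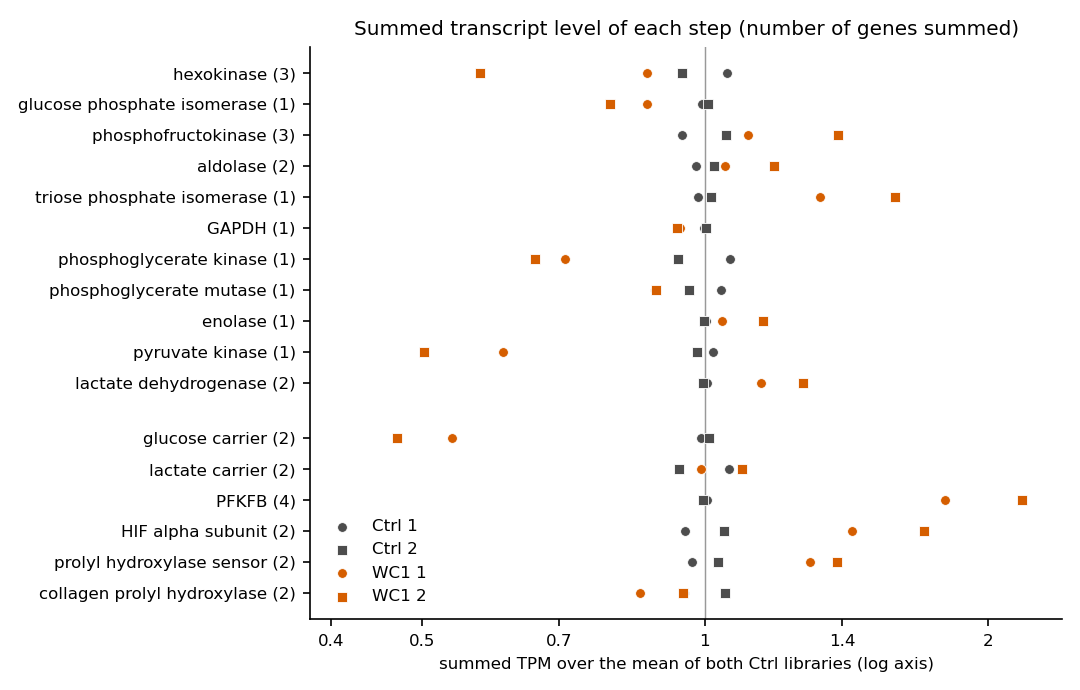
Summed TPM of the genes of each step in each library, divided by the mean of both Ctrl libraries, on a log axis, with the enzymes of glycolysis in pathway order and the other groups below them. Pyruvate kinase and the glucose carriers Slc2a1 and Slc2a3 lie farthest to the left in WC1 (means of 0.56 and 0.50 of Ctrl) and the PFKFB family farthest to the right (1.99). The sum of glucose carriers leaves out carriers that are not members, such as the GLUT4 gene Slc2a4, which rose.

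Of the 4 oxygen-sensing genes, 1 was called, Epas1, and in 3 of 4 both WC1 libraries lay above both Ctrl libraries, beside 17.9% and 32.7% of all genes tested. Epas1 encodes HIF-2 alpha, the HIF subunit of endothelium and adipocytes, and measured 249 and 273 CPM in Ctrl and 364 and 428 CPM in WC1, 1.52-fold higher with no overlap (log2 fold change 0.60 ± 0.11, adjusted p = 0.031). Hif1a, which encodes the ubiquitous HIF-1 alpha, measured 107 and 115 CPM in Ctrl and 129 and 144 CPM in WC1. It was called in TPM (adjusted p = 0.044) but not in CPM (log2 fold change 0.29 ± 0.08, adjusted p = 0.072). Egln1, which encodes PHD2, the main oxygen sensor, measured 66.4 and 70.9 CPM against 82.5 and 84.9 CPM, with an adjusted p of 0.053 in CPM (log2 fold change 0.28 ± 0.07) and 0.032 in TPM. Egln3, a sensor that hypoxia itself induces, was the least abundant member at between 1.5 and 2.2 TPM and overlapped between groups. HIF alpha proteins are set mainly by their stability, and only transcripts were measured here.

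Of the 5 genes induced by hypoxia, 1 rose and 1 fell, beside 10.2% and 7.71% of all genes tested. Bnip3, which directs mitochondria to autophagy, measured 138 and 143 CPM in Ctrl and 238 and 309 CPM in WC1, 1.95-fold higher (log2 fold change 0.94 ± 0.14, adjusted p = 0.021). P4ha1, a prolyl hydroxylase that stabilises collagen, measured 112 and 122 CPM in Ctrl and 85.4 and 85.2 CPM in WC1 (log2 fold change -0.45 ± 0.07, adjusted p = 0.024), and its adjusted p in TPM was 0.052. P4ha2, its partner, overlapped between groups (log2 fold change 0.03). Higd1a, a mitochondrial protein of hypoxia adaptation, lay higher in both WC1 libraries (52.8 and 60.6 CPM against 44.8 and 42.4 CPM, log2 fold change 0.37 ± 0.09, adjusted p = 0.054), and Ddit4, an inhibitor of mTORC1, overlapped (log2 fold change 0.09, adjusted p = 0.61).

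**Figure D4:**
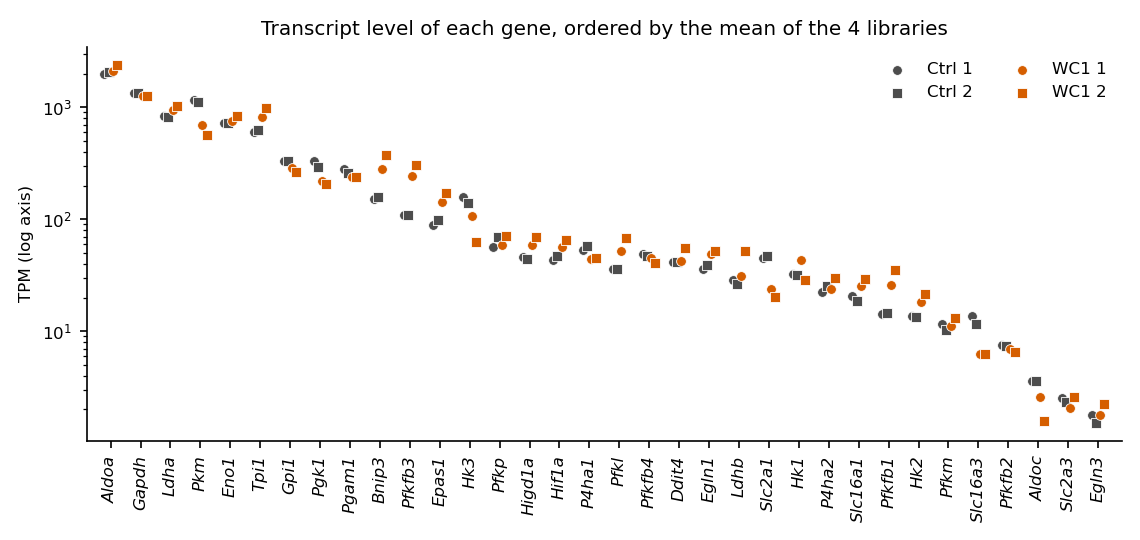
TPM of each of the 34 genes in each library on a log axis, ordered by the mean of the 4 libraries. Aldoa stands highest and Egln3 lowest, and 13 genes have a mean of at least 100 TPM. The ranges of Aldoa and Gapdh do not overlap with each other or with any gene below them, while those of neighbours from Ldha to Tpi1 and from Gpi1 to Hk3 do.

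Among the 13 genes with a mean of at least 100 TPM, 6 were called: Bnip3, Pfkfb3 and Epas1 higher, and Pkm, Gpi1 and Pgk1 lower. Of all genes tested, at any level, 17.9% were called (10.2% higher and 7.71% lower). The levels in TPM began with Aldoa at 2136, Gapdh at 1296, Ldha at 907, Pkm at 879, Eno1 at 758 and Tpi1 at 754. These were followed by Gpi1 at 303, Pgk1 at 263, Pgam1 at 254, Bnip3 at 242, Pfkfb3 at 193, Epas1 at 125 and Hk3 at 117. The order of Eno1 and Tpi1 turned between groups, with Eno1 above Tpi1 in both Ctrl libraries and below it in both WC1 libraries. Each called gene rested on at least 452 reads in every library.

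The upstream sequence of 4 called genes is shown because HIF and other factors read glycolytic promoters through the short core ACGTG or GCGTG, searched here on both strands in the 250 bases before each RefSeq start (GRCm38.p6). The genes are the 2 largest rises and 2 largest falls among the 6 called members with 1 start in the table that lies within 50 bases of the GENCODE M21 gene end. Capitals mark the core or its reverse complement, and stretches annotated as exon were left off except for 3 bases of Slc2a1 that complete a core.

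Bnip3, chr7:138909520-138909756, minus strand: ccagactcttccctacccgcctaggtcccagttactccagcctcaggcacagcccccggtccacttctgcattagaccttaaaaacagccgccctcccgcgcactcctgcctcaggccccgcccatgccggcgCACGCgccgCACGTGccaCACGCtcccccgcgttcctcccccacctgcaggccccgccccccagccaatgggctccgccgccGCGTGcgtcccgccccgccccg
Hk2, chr6:82774455-82774704, minus strand: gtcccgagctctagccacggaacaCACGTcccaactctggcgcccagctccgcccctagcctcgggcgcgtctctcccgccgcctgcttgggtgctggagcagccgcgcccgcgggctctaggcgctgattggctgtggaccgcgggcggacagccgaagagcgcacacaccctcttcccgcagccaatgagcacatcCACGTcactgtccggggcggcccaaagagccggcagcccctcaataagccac
Slc2a1, chr4:119108495-119108713, plus strand: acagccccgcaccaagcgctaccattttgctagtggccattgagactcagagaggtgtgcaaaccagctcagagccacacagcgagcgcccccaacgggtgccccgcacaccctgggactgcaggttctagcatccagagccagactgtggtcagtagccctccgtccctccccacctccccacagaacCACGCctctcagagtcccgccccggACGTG
Pgk1, chrX:106186850-106187099, plus strand: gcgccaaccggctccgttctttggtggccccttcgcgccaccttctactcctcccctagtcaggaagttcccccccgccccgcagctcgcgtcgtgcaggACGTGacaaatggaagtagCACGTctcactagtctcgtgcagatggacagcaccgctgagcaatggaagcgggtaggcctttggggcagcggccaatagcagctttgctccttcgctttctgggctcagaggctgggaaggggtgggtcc

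The Bnip3 stretch held 5 matches, of which 2 overlap in a single CACGTG that reads ACGTG on either strand, and the others held 2 each. Of the 34 members, 32 had entries in the RefSeq table (Epas1 and Slc2a3 had none), and 40 of their 49 start windows (81.6%) held a match, beside 53.7% of the windows of all genes tested and 38.6% of all windows in the table. The count was 6 of 9 windows for members called higher, 5 of 7 for members called lower and 29 of 33 for members not called. A match is a description of the letters and not of a bound site.

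Other genes of the same pathways were read from 4 lists of 81 genes, of which 74 were tested, with 17 called higher and 9 lower (35.1%, beside 17.9% of all genes tested). Among 13 other glycolytic isozymes and branch enzymes limma called 3 higher and 0 lower, beside 10.2% and 7.71% of all genes. At an unadjusted p under 0.05, 3 were lower (18.9% of all genes), and edgeR called 0 lower and DESeq2 2 (7.14% and 12.3% of all genes). Gpd1, which takes carbon from glycolysis to glycerol 3-phosphate for triglyceride, measured 833 and 948 CPM in Ctrl and 1304 and 1455 CPM in WC1 (log2 fold change 0.63 ± 0.13, adjusted p = 0.039). Pgm2, a phosphoglucomutase symbol that RefSeq also lists as an older name of Pgm1, rose by 0.51 ± 0.11 on the log2 scale (89.9 and 100.6 CPM against 126 and 147 CPM, adjusted p = 0.038). Ldhd, the D-lactate dehydrogenase of mitochondria, rose by 0.86 ± 0.17 on that scale (8.12 and 7.86 CPM against 12.9 and 18.0 CPM, adjusted p = 0.034).

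Of 16 genes of pyruvate and lactate handling, 4 rose and 1 fell (25% and 6.25%, beside 10.2% and 7.71% of all genes tested). Mpc2, a subunit of the mitochondrial pyruvate carrier, measured 70.6 and 69.1 CPM in Ctrl and 94.8 and 103 CPM in WC1 (log2 fold change 0.49 ± 0.07, adjusted p = 0.021). Dlat, a subunit of the pyruvate dehydrogenase complex, measured 92.8 and 95.6 CPM against 125 and 138 CPM (log2 fold change 0.48 ± 0.08, adjusted p = 0.024). Emb, a chaperone of the lactate carriers, fell from 114 and 100.6 CPM to 57.9 and 47.5 CPM (log2 fold change -1.02 ± 0.12, adjusted p = 0.016). Slc2a4, which encodes GLUT4, the insulin-regulated glucose carrier of fat and muscle, was chosen for naming after its values were seen. It rose from 24.8 and 32.4 CPM to 47.6 and 72.6 CPM (log2 fold change 1.03 ± 0.23, adjusted p = 0.044), while Slc2a1 fell. In TPM Slc2a4 measured 16.8 and 22.2 in Ctrl and 35.2 and 55.3 in WC1. It is not a member and was not part of the summed glucose carriers.

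Of 12 regulators of the HIF pathway, 1 rose and 2 fell (8.33% and 16.7%, beside the same 10.2% and 7.71%). Vhl, which recognises hydroxylated HIF alpha for destruction, rose by 0.38 ± 0.08 on the log2 scale (29.4 and 30.6 CPM against 37.5 and 41.0 CPM, adjusted p = 0.040). Its partners in the ubiquitin ligase, Tceb2 (elongin B) and Rbx1, each fell by 0.34 ± 0.06 on that scale (adjusted p = 0.030 and 0.031), and neither fall was called in TPM (adjusted p = 0.11 and 0.090). Tceb2 measured 134 and 133 CPM in Ctrl and 106 and 104 CPM in WC1, and Rbx1 75.5 and 74.3 CPM against 57.9 and 59.7 CPM.

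Of 33 other genes that hypoxia induces, 9 rose and 6 fell (27.3% and 18.2%, beside 10.2% and 7.71% of all genes tested), with a median log2 fold change of 0.00. Hmox1, the heme oxygenase, had the largest change at 937 and 965 CPM in Ctrl and 217 and 183 CPM in WC1 (log2 fold change -2.25 ± 0.11, adjusted p = 0.0044). Tfrc, the transferrin receptor, fell from 75.9 and 65.0 CPM to 33.0 and 35.0 CPM (log2 fold change -1.03 ± 0.10, adjusted p = 0.013). Nos2, the inducible nitric oxide synthase, was rare and rose from 4.23 and 4.70 CPM to 9.54 and 12.3 CPM (log2 fold change 1.12 ± 0.15, adjusted p = 0.019). Vegfa and Hilpda, named after their values were seen, are both textbook HIF targets and parted. Vegfa, the angiogenic growth factor, rose from 47.4 and 59.1 CPM to 98.2 and 136 CPM (log2 fold change 1.11 ± 0.19, adjusted p = 0.026). Hilpda, an inhibitor of lipolysis on lipid droplets, fell from 79.0 and 76.4 CPM to 40.0 and 25.6 CPM (log2 fold change -1.25 ± 0.21, adjusted p = 0.025).

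**Figure D5:**
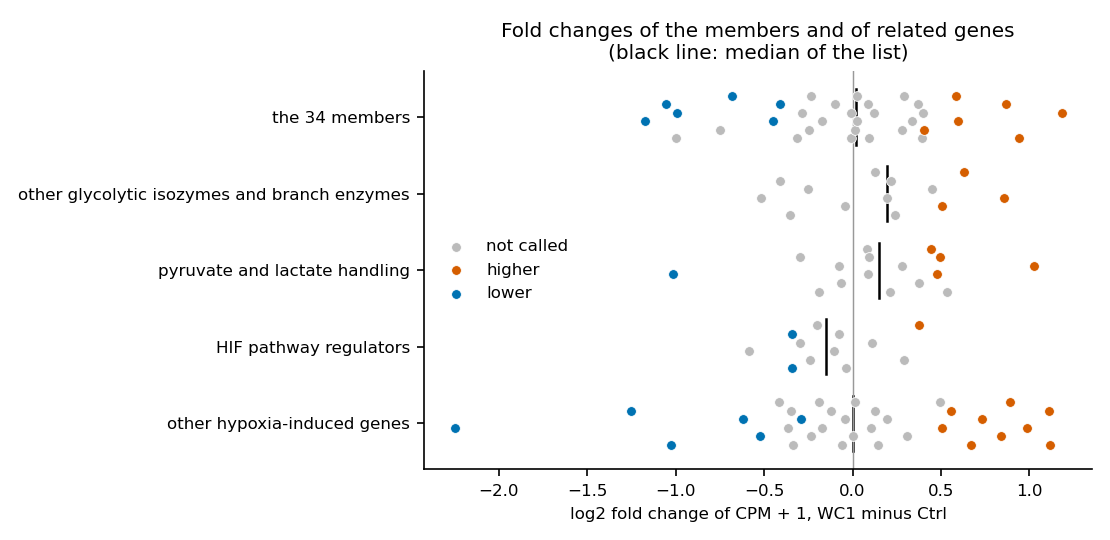
Log2 fold change of CPM + 1 (WC1 minus Ctrl) of the 34 members and of the tested genes of the 4 other lists, with 1 point per gene. Orange points were called higher, blue points lower and grey points were not called, and the black line is the list's median. The point at -2.25 is Hmox1, and every list but the other glycolytic isozymes holds genes called in both directions.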

How the data were processed

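The submitters' processing notes name fastp, HISAT2, StringTie and the mouse build mm10. The read counter, its strand setting and the annotation were not given in the sources used here. Libraries were poly(A)-selected and directional per the labels. The authors deposited a matrix called CPM, here treated as a signal proportional to reads, because its columns summed to between 97.6% and 105% of a plain CPM total. Whole reads were recovered from it (100% of values whole within 0.05 read). In the other matrix the authors deposited TPM, which is per transcript length and sums to the same total in each library. No other columns of samples were present, and 6289 genes were at 0 in every library.

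Genes with 0.5 CPM or more in 2 or more libraries (14106 of 24421) were compared on log2(CPM + 1), WC1 minus Ctrl, with limma 3.58.1 in R 4.3.3 (abundance trend, two-sided) and Benjamini-Hochberg adjustment over all of them, and 2531 genes were called at 0.05. For rare genes the added 1 makes a fold change smaller than the true one. Errors are standard errors of the fit. On the recovered reads edgeR 4.0.16 (quasi-likelihood) called 2483 genes and DESeq2 1.42.0 called 3861. Shares of isozymes were computed from TPM. The fits were also run on simulated counts with known changes, and the outcome is not given here. The labels do not say whether libraries came from separate animals or pools, so p-values measure only the spread between these libraries.

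The members and lists were chosen with earlier results of these data known. All 34 members are named, those called or with a mean of at least 100 TPM with the value of each library. Of each list of other genes the 3 with the smallest p are named, and of marker lists the most abundant gene. The neutrophil and erythroid genes given next were named after their values were seen. In the other marker lists limma called higher 3 of 7 tested genes of smooth muscle and pericytes, 1 of 3 of neutrophils, 1 of 5 of erythroid cells, 1 of 2 of skeletal muscle and 1 of 5 of brown adipocytes, which also had 1 called lower, beside 10.2% higher and 7.71% lower of all genes. The neutrophil call was S100a8, while Csf3r and Mmp8 lay lower in both WC1 libraries and were not called. The erythroid call was Hba-a1 (2.49 and 3.42 CPM in Ctrl, 241 and 51.8 CPM in WC1). Hba-a2 measured 179 and 188 CPM in Ctrl, 0.16 CPM in WC1 1 and 231 CPM in WC1 2, and was not called. Of 6 mesothelial and 9 T, NK and B cell genes limma called 0 and 0 (0 and 2 at an unadjusted p under 0.05, beside 37.8% of all genes), edgeR 0 and 0, and DESeq2 0 and 2. Gene positions and exon overlaps come from GENCODE M21 and start windows from RefSeq (GRCm38.p6). Exons of several members overlap those of genes on the opposite strand.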

Additional observations from a re-analysis of the deposited data

How the results depend on the processing

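The 12 called members kept their sign under each alternative run, and their calls changed in 30 of 156 refitted values, 24 of them with a library left out. With a library left out their sign could not turn, because the groups of these 12 genes did not overlap. Without a filter on low values 3 members were called higher and 5 lower (4.35% and 2.93% of 18132 genes), and Epas1, Gpi1, Hk2 and Pfkl lost their calls. TPM gave 11 members higher, and DESeq2 gave 11 higher and 10 lower (15.1% and 12.3% of all genes), adding Hk3, Aldoc, Tpi1, Gapdh, Pgam1, Slc16a1, Hif1a, Egln1 and Higd1a. Over the 4 fits with a library left out, between 0 and 12 members were called higher and between 0 and 11 lower, with 0 when either Ctrl library was missing (the lone library is then assumed to vary like the other group). Of the other pathway genes, 17 higher and 9 lower in the report, between 0 and 20 were higher and between 0 and 17 lower with a library left out (at most 17.2% and 19.5% of all genes), 4 were higher without a filter (4.35%), and 5 were lower in TPM (4.13%). The cause of these changes was not tested.

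Members near no change turned sign. Hk1 (-0.01) gave 0.13 in TPM, 0.0094 with median-of-ratios scaling, 0.043 with edgeR and 0.042 with DESeq2. Eno1 (-0.01) gave 0.13 in TPM, 0.010 with median-of-ratios scaling, 0.011 with edgeR and 0.012 with DESeq2, and Pfkp (-0.10) gave 0.040 in TPM. With a library left out the log2 fold change lay between -0.33 (without WC1 1) and 0.31 (without WC1 2) for Hk1. It lay between -0.063 and 0.12 for Pfkm, -0.24 and 0.043 for Pfkp, -0.048 and 0.081 for Aldoa, -0.058 and 0.041 for Eno1, -0.0066 and 0.19 for Egln3, -0.071 and 0.26 for Ddit4, and -0.11 and 0.17 for P4ha2. Adding the reads of Eno1b to Eno1, chosen after seeing the data, left -0.01.

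With the replicate number as a block, 8 members were called higher and 9 lower, adding Hk3, Aldoc, Pgam1, Hif1a and Egln1, and calls over all genes went from 17.9% to 23.2%. Nothing in the labels ties a Ctrl library to the WC1 library of its number, and the differences between the libraries of each group correlated across genes at r = 0.19, so the numbers are not taken as a pairing. With 2 libraries per group the spread within a group rests on a single difference. Reads shared with near-identical copies were not resolved.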
